A study of Mus musculus with 7 samples.

Results

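The regenerating islet (Reg) family was examined in pancreatic islets of second-generation (F2) male mice. Its members were taken by Ensembl identifier, matched to symbols in GENCODE M21, and all 7 genes of the family named for this work (Reg1, Reg2, Reg3a, Reg3b, Reg3d, Reg3g and Reg4) were found among the 21899 genes listed. F0 dams of the C57BL/6J background received daily injections in late pregnancy, of dihydrotestosterone in benzyl benzoate and corn oil (androgen exposure, AE) or of the same vehicle alone (control). Their F1 sons were mated with unrelated wild-type females, and the F2 males, which were themselves not injected, form the control-F2 group (labelled Ctrl) and the AE-F2 group (labelled HA). The labels list 3 control-F2 and 4 AE-F2 samples, of which control-F2 replicate 1 and AE-F2 replicate 4 were analysed here, and the other 5 were not analysed here. These libraries are called the control library and the AE library below. The labels give neither the age of these animals nor whether islets of several animals were pooled. Islets had been freed with collagenase, spun on a density gradient, picked by hand and placed in culture medium, so that exocrine cells can be carried along. With 1 library per group, no difference below has a replicate check, no test of the conditions was possible and no p-value is given.

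Reg proteins are small secreted proteins built around a C-type lectin-like fold. Reg1 was named after its appearance in regenerating islets, and it is made in quantity by the acinar cells, the enzyme-secreting cells of the exocrine pancreas. Reg2 is its nearest relative in the mouse. The Reg3 proteins include pancreatitis-associated protein (Reg3b) and an antibacterial lectin of the gut (Reg3g), and their genes are known to respond to inflammation, in part through cytokines that act on the transcription factor STAT3. Reg4 is known mainly from the gut. EXTL3, a glycosyltransferase of the exostosin family, has been described as a receptor for Reg proteins.

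The depth was 16285888 counts for the control library and 21278513 for the AE library. The β-cell genes Ins1 and Ins2 took 17.7% and 17.5% of them, and glucagon (Gcg), of α-cells, was at 16034 and 21996 CPM (counts scaled to library size, with factors from the TMM method). Only genes whose mean over both libraries reached 10 counts were compared (13627 genes), and a gene was counted as higher or lower when it passed 2-fold. The intervals given are 95% exact intervals that cover counting error only. They say how far these libraries differ and leave out the spread between animals.

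Of the 7 Reg genes, 6 lie side by side on chromosome 6 and Reg4 lies on chromosome 3. In GENCODE M21, which is drawn on GRCm38, the cluster runs from 78370657 to 78468872 on chromosome 6, a span of 98.2 kb, and no other annotated gene lies in it. From low to high coordinates the order is Reg3b, Reg3d, Reg3a, Reg2, Reg1 and Reg3g, with Reg3d and Reg3g on the minus strand and the others on the plus strand. Reg4 occupies 98222156 to 98236748 on the plus strand of chromosome 3. The genome build behind the deposited counts is not given in the sources used here, so these positions describe the annotation and not the authors' files.

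Since reads from similar genes can be divided between them, the coding sequences of the members were compared. Reg1 and Reg2 were the closest pair, with 78.7% identical bases over the aligned coding sequence. Among the Reg3 genes, Reg3b and Reg3g shared 75.9%, Reg3a and Reg3b 73.6%, and Reg3d was the most distant, with 66.2% to Reg3g and 66.7% to Reg3a. Reg4 shared 50.1% to 53.8% with any other member. To show how alike the closest pair is, the 60 coding bases in which Reg1 and Reg2 differ least are given, with the 6 bases that differ in capitals. In Reg1 they lie in exon 5 of 7, at chr6:78427353-78427412 (GRCm38, plus strand), and in Reg2 in exon 4 of 6, at chr6:78406528-78406587 (plus strand).
Reg1: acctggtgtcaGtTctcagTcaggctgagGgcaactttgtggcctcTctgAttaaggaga
Reg2: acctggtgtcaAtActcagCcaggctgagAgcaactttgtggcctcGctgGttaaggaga

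When the longest protein-coding transcript of each member was compared with the transcripts of all other genes in GENCODE M21 on both strands, no stretch of 100 or 150 bases was shared exactly by any of the 7. Of the stretches of 50 bases, 3.74% were shared for Reg1 and 0% for the other 6. The longest run that Reg1 shared was 71 bases, with the noncoding gene Gm15912. Reg3b and Reg3g had a run of 35 bases in common, and Reg2 had none of 20 bases or more with any other gene. The deposited values for all 7 members were whole numbers in both libraries, whereas fractions made up 8.56% of all values in the control library and 9.28% in the other. Sharing with a mismatch was not measured, so some exchange of reads between members is possible.

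**Figure D1:**
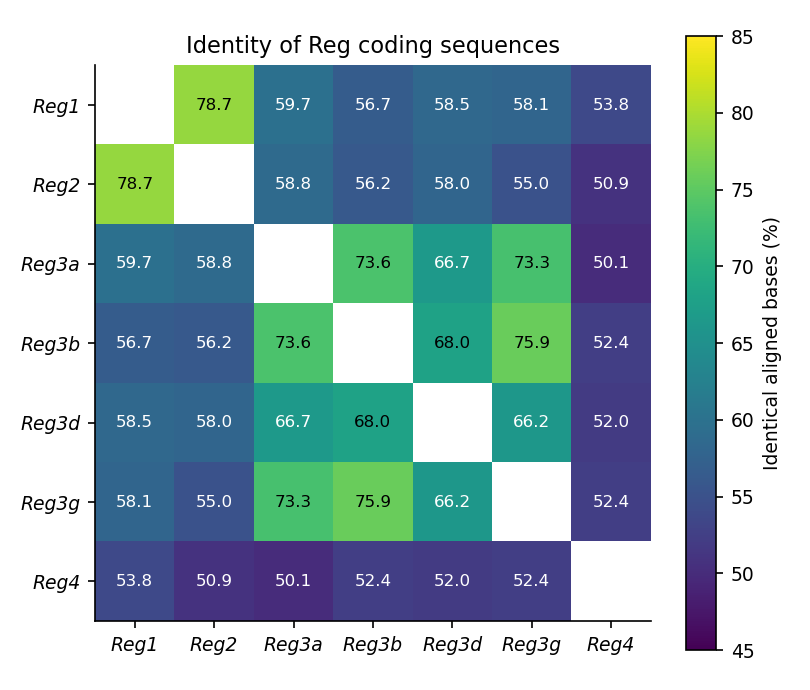
Percent of identical aligned bases between the coding sequences of the 7 Reg genes (both axes list the genes, and the colour scale runs from 45% to 85%). Reg1 and Reg2 form the closest pair at 78.7%, the Reg3 genes share 66.2% to 75.9% with each other, and Reg4 stays at or below 53.8% with every member.

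Reg1 was by far the most abundant member in both libraries. Reg1 (ENSMUSG00000059654) had 540 counts in the control library, or 33.1 CPM with a counting interval from 30.4 to 36.0, and 650 counts in the AE library, or 30.6 CPM (28.3 to 33.01). The 2 intervals overlap, and the log2 ratio (AE over control, as throughout) came to -0.12, its interval of -0.28 to 0.05 including equality. A difference in Reg1 was therefore not detectable at this depth between these libraries. By number of counts Reg1 stood at rank 5241 in the control library and at rank 5489 in the AE library, among genes of middling abundance. The 5 genes closest to it in log2 CPM over both libraries were Coq8b (distance 0.0054), Phf21b, Clpp, Fbxo7 and Tigar (distance 0.016), a likeness over 2 libraries only.

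Reg2 was low in the control library and higher in the AE library. Reg2 (ENSMUSG00000023140) had 22 counts in the former, 1.35 CPM with an interval from 0.846 to 2.04, and 82 counts in the latter, 3.86 CPM with an interval from 3.07 to 4.79. The 2 intervals did not overlap. The log2 ratio of Reg2 was 1.49, with an interval from 0.82 to 2.26, which corresponds to a 2.81-fold higher level in the AE library (1.77-fold to 4.81-fold). The lower end of this interval lies under the 2-fold threshold.

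Reg3b (ENSMUSG00000071356), the pancreatitis-associated member, showed the largest ratio of the 4 Reg genes compared. It went from 14 counts, or 0.859 CPM (0.470 to 1.44), in the control library to 82 counts, or 3.86 CPM (3.07 to 4.79), in the AE library, again without overlap. Its log2 ratio was 2.12, with an interval from 1.34 to 3.10, a 4.36-fold higher level (2.53-fold to 8.57-fold). Reg3b was thus level with Reg3d in the control library and level with Reg2 in the AE library in number of counts.

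Reg3d (ENSMUSG00000068341), whose gene lies next to Reg3b on the opposite strand, had 14 counts in each library. After scaling this was 0.859 CPM (0.470 to 1.44) in the control library against 0.658 CPM (0.360 to 1.10) in the AE library, with overlapping intervals. Its log2 ratio of -0.38 had an interval from -1.56 to 0.79, so that neither a 2-fold decrease nor a 1.73-fold increase lies outside counting error.

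The remaining 3 members were at the limit of detection and were not compared. Reg3a had 0 counts in the control library against 7 in the AE library (0.329 CPM, interval 0.132 to 0.678). Set against the 3 counts that a count of 0 allows, its 7 counts were at least 1.79-fold higher as a point value, and with the counting error of both libraries the exact interval of the fold reached down to 1.105. Reg3g, the antibacterial lectin, had 0 counts and 1 count. Reg4 had 0 counts in both libraries, which allows a level of up to 0.184 CPM in the control library against 0.141 CPM in the AE library. No ratio is given for Reg3g or Reg4, since both libraries lie at or under that limit.

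**Figure D2:**
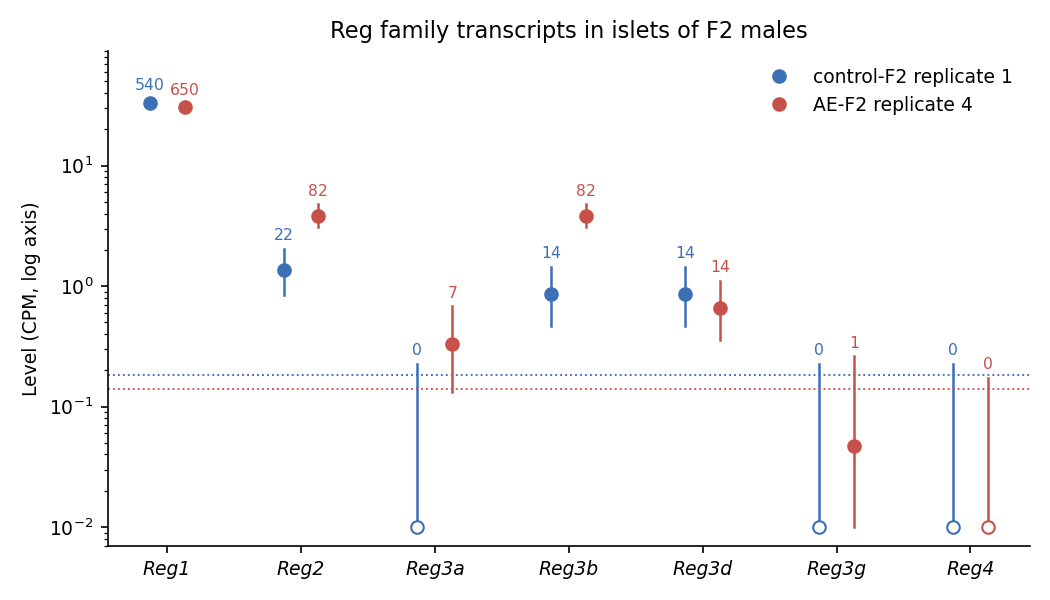
Level of each Reg gene in CPM (log axis) in control-F2 replicate 1 (blue) and AE-F2 replicate 4 (red), with exact 95% counting intervals as lines, the count printed above each point, open circles at the foot of the axis for 0 counts, and dotted lines at the level of 3 counts in each library. Reg1 sits at 33.1 and 30.6 CPM, whereas Reg2 (1.35 and 3.86 CPM) and Reg3b (0.859 and 3.86 CPM) are separated between the libraries, and Reg3a, Reg3g and Reg4 lie near or under 3 counts.

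Of the 4 Reg genes with enough counts, 2 (Reg2 and Reg3b) passed 2-fold on the higher side in the AE library and 0 on the lower side. Over all 13627 genes compared, 3.16% were at least 2-fold higher and 0.66% at least 2-fold lower. This share depends strongly on abundance. Among genes with a mean of 30 to 100 counts, where Reg2 (mean 52) and Reg3b (mean 48) lie, 7.22% were at least 2-fold higher and 0.795% at least 2-fold lower. Among genes with a mean of 10 to 30 counts, the range of Reg3d, 20.6% were higher and 4.3% were lower, and among genes with a mean of 100 to 1000 counts, the range of Reg1, 0.396% were higher and 0.113% lower. The median log2 ratio of the 4 Reg genes was 0.69, with a range from -0.38 to 2.12, against 0.00 (-0.0014) over all genes compared. A median over 4 genes of which 2 lie on each side of 0 describes none of them.

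**Figure D3:**
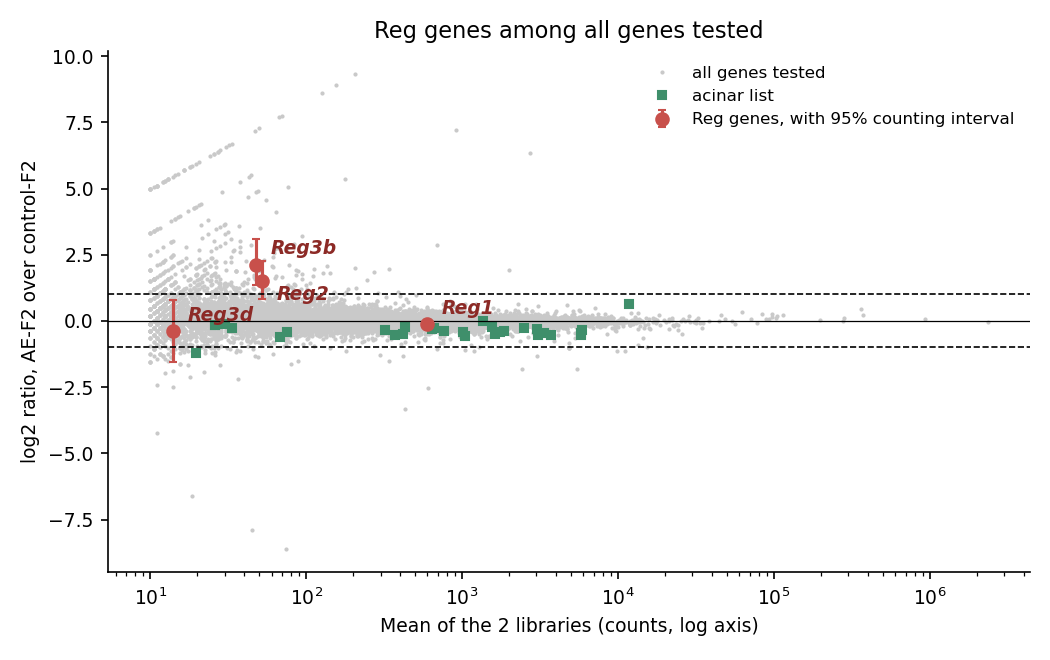
The log2 ratio, AE over control, for each gene whose mean reached 10 counts, against its mean count (log axis), with the acinar list as green squares, the 4 Reg genes in red with 95% counting intervals, and dashed lines at 2-fold. Reg2 (1.49) and Reg3b (2.12) lie above the upper line, in a range of counts where the cloud of all genes is wide, and the straight upper streaks are genes with few counts in the control library, whose position depends on the pseudocount of 0.5 counts.

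The sum over the family hid this difference between members. All 7 genes together had 590 counts in the control library against 836 in the AE library, which is 36.2 and 39.3 CPM. For the sum the log2 ratio was 0.12, and its interval (-0.03 to 0.27) included equality. Without Reg1, the other 6 had 50 and 186 counts, or 3.07 and 8.75 CPM, a log2 ratio of 1.501 (1.05 to 1.99). The 4 Reg3 genes alone had 28 and 104 counts, a log2 ratio of 1.49 (0.90 to 2.17), most of it from Reg3b.

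The make-up of the family therefore differed between the libraries. Reg1 made up 91.5% of the Reg counts in the control library (exact interval 89.0% to 93.6%) and 77.8% in the AE library (74.8% to 80.5%). The share of Reg2 was 3.73% (2.35% to 5.59%) in the control library against 9.81% (7.88% to 12.0%) in the AE library. For Reg3b it was 2.37% (1.30% to 3.95%) and 9.81% (7.88% to 12.0%), and none of these 3 pairs of intervals overlapped. Reg3d held 2.37% (1.30% to 3.95%) and 1.67% (0.918% to 2.79%), which did overlap.

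**Figure D4:**
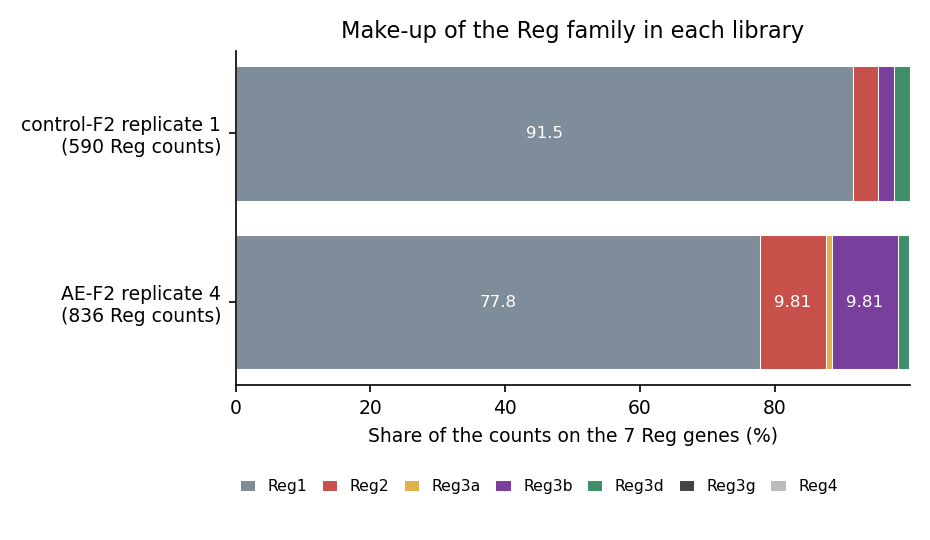
Share of the counts on the 7 Reg genes that each member took, in percent, for 590 counts in control-F2 replicate 1 and 836 counts in AE-F2 replicate 4. Reg1 takes 91.5% of the control bar and 77.8% of the AE bar, and Reg2 and Reg3b each take 9.81% in the AE library against 3.73% and 2.37% in the control library.

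Levels of different members can be compared only per transcript length. On the scale of counts per kilobase of transcript, scaled to a fixed sum per library (TPM), Reg1 was at 54.0 in the control library against 49.1 in the AE library. Reg2 was at 2.57 and 7.24 TPM, Reg3b at 1.97 and 8.72, and Reg3d at 1.73 and 1.31. On this scale Reg3b was above Reg2 in the AE library and below it in the control library. The order in the AE library depended on the length used, which was a mean over transcripts of 578 bases for Reg3b and 696.5 for Reg2. With the longest transcript of each gene, Reg2 was the higher of the 2 in both libraries (3.59 against 2.04 TPM, and 9.999 against 8.91). In the control library the order was the same with both lengths, but the counting intervals of their CPM overlap. For comparison, the acinar enzyme genes Ctrb1 (a chymotrypsinogen) and Pnlip (a lipase) were at 538 and 441 TPM in the control library.

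Because acinar cells make Reg proteins, the acinar genes were read beside the family. The acinar list held 34 genes, of which 32 were listed and 30 were compared. Of these 30, 0 were at least 2-fold higher and 1 was at least 2-fold lower, the trypsinogen gene Try10 (25 and 14 counts, log2 ratio -1.20, interval -2.28 to -0.22). Over all genes 3.16% were higher and 0.66% lower, and at a mean of 10 to 30 counts, where Try10 lies, 4.3% were lower. The median log2 ratio was -0.38, and 29 of the 30 ratios were below 0. The lipase gene Pnlip went from 365 to 269 CPM (log2 ratio -0.44), Cela2a, an elastase, from 370 to 258 CPM (-0.52) and Ctrb1 from 356 to 281 CPM (-0.34). The 1 gene above 0 was the amylase gene Amy2a5, with 477 CPM in the control library against 735 in the AE library, a log2 ratio of 0.62 (0.59 to 0.66). Amylase genes have near-identical copies, and how reads were divided among them was not measured here. In bulk islets, fewer cells of a type and less RNA per cell cannot be told apart.

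Set against the acinar counts of its own library, the Reg family amounted to 1.06% of the summed acinar counts in the control library (0.979% to 1.15%) and to 1.34% in the AE library (1.25% to 1.43%). For Reg1 alone the values were 0.974% (0.893% to 1.06%) and 1.04% (0.960% to 1.12%), which overlap. Without Amy2a5 in the sum, Reg1 was at 1.13% (1.04% to 1.23%) and 1.38% (1.28% to 1.496%), which do not overlap. Reg2 was at 0.0397% (0.0249% to 0.0601%) and 0.131% (0.104% to 0.163%). Reg3b was at 0.0252% (0.0138% to 0.0424%) and 0.131% (0.104% to 0.163%), so that both stood higher against the acinar genes in the AE library with or without Amy2a5.

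The candidate receptor gene Extl3 was well expressed and did not differ beyond counting error. It had 1000 counts (61.4 CPM) in the control library against 1264 (59.4 CPM) in the AE library, a log2 ratio of -0.05 (-0.17 to 0.08). Of the 5 exostosin genes, 4 were compared and 0 passed 2-fold in either direction, against 3.16% higher and 0.66% lower over all genes. At a mean of 100 to 1000 counts, the range of Ext1, 0.396% of all genes were higher and 0.113% lower, so that 0 of 4 is near the share of all genes. Ext1, which with Ext2 builds heparan sulfate chains, had the largest ratio of the 4 (0.27, interval 0.12 to 0.43), and Ext2 (-0.06) and Extl2 (-0.01) had intervals that included equality.

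Genes of the cytokine route to STAT3, known upstream of Reg3 genes, were fixed as a list of 24, of which 17 were compared. None passed 2-fold in either direction (0 higher and 0 lower), against 3.16% higher and 0.66% lower over all genes. At a mean of 100 to 1000 counts, where many of the 17 lie, 0.396% of all genes were higher and 0.113% lower. A count of 0 is thus near the share of all genes. The median log2 ratio was -0.03, with a range from -0.65 to 0.47. Il6ra, which encodes a receptor chain for interleukin-6, was at 309 and 304 CPM (log2 ratio -0.03). The kinase gene Jak1 was at 184 and 183 CPM (-0.00, value -0.0034), Stat3 at 131 and 139 CPM (0.09, interval 0.01 to 0.17) and Lifr, a receptor chain for leukemia inhibitory factor, at 109 and 116 CPM (0.10). The following were chosen after their values were seen. Socs3, a feedback inhibitor that STAT3 induces, was at 38.5 CPM in the control library against 24.6 in the AE library, a log2 ratio of -0.65 (-0.82 to -0.48), the lowest of the 17 compared. Osm, which encodes the cytokine oncostatin M and was under the minimum, had 12 and 3 counts (interval of the log2 ratio -4.85 to -0.49). Cebpd, a transcription factor gene that STAT3 induces, had the highest ratio of the 17, 0.47 (0.13 to 0.82). Fosb (log2 ratio -1.80), Dnajb1 (-1.82), Klf4 (-1.05) and Gadd45b (-0.70), which respond rapidly to stimulation or stress, were picked for their low ratios and so give no count, while 0.66% of all genes were at least 2-fold lower. Their part in the value of Socs3 was not tested. Il6 had 1 count in each library, and Il22 and Il22ra1, the ligand and the receptor chain of the interleukin-22 route, had 0 counts in both.

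**Figure D5:**
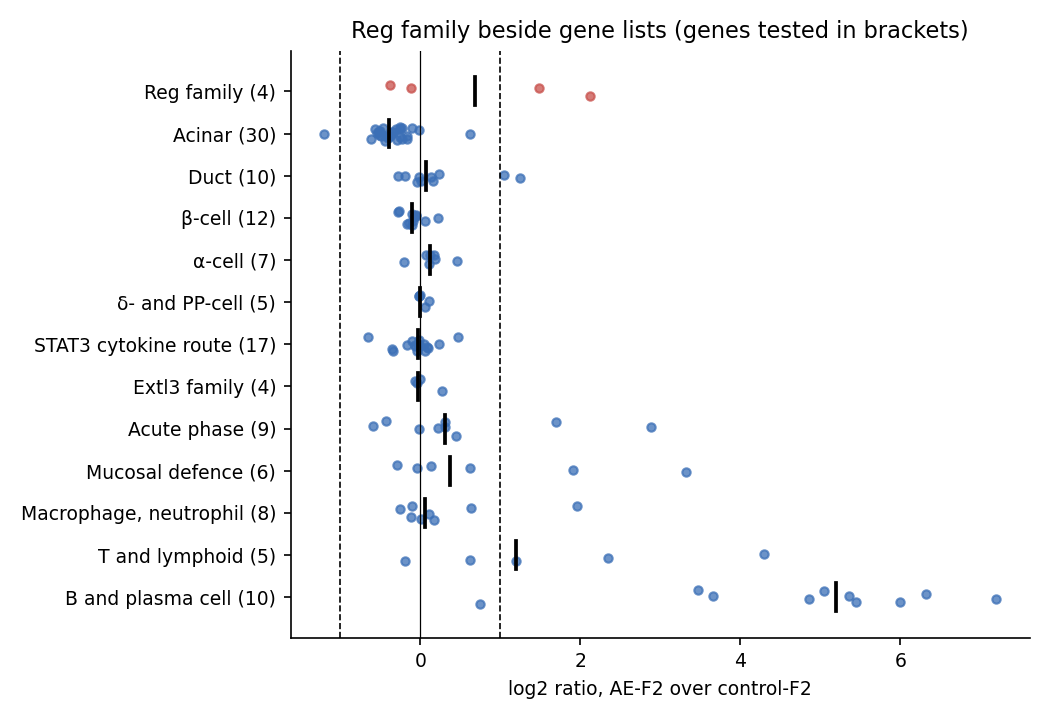
The log2 ratio, AE over control, for each gene compared in the Reg family (red) and in 12 gene lists (blue), with the median of each as a black bar, dashed lines at 2-fold and the number of genes compared in brackets. The 4 Reg genes spread from -0.38 to 2.12, the acinar genes gather below 0 (median -0.38), the STAT3 route gathers at 0 (median -0.03) and the B and plasma cell genes lie to the right (median 5.20), most of them compared only because of their AE counts, with genes at 0 counts in 1 library placed by the pseudocount.

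Other secreted epithelial and acute phase genes were examined beside Reg2 and Reg3b. In the mucosal defence list (16 genes, 6 compared), 2 were at least 2-fold higher and 0 lower, against 3.16% and 0.66% of all genes, or 20.6% higher at a mean of 10 to 30 counts, where Lyz1 lies. Dmbt1, which encodes a secreted scavenger receptor of mucosal epithelia, went from 680 counts (41.7 CPM) to 3336 (157 CPM), a log2 ratio of 1.91 (1.79 to 2.03). Lyz1, a lysozyme of Paneth cells in the gut, had 1 and 19 counts (log2 ratio 3.32, interval 1.21 to 9.24), and with a mean of 10 counts it was compared only because of its counts in the AE library, so that its place past 2-fold follows from the minimum. Pigr, which carries polymeric immunoglobulins across epithelia, went from 10.7 to 16.4 CPM (log2 ratio 0.62) and did not pass 2-fold. Defb1, a defensin, was at 69.6 and 67.5 CPM, and the lectin Zg16 of secretory granules, which the acinar list also holds, at 38.2 and 31.3 CPM.

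In the acute phase list (20 genes, 9 compared), 2 were at least 2-fold higher and 0 lower, against 3.16% and 0.66% of all genes. The complement gene C3 went from 129 counts (7.91 CPM) to 1247 (58.7 CPM), a log2 ratio of 2.88 (2.63 to 3.16). Lcn2, the iron-binding lipocalin of neutrophils and inflamed epithelia, had 6 and 27 counts, a log2 ratio of 1.70 (0.48 to 3.35). It was compared only because of its counts in the AE library, in a range of abundance where 20.6% of all genes were higher. Nupr1, a stress gene first described in pancreatitis, was at 47.5 and 31.5 CPM (log2 ratio -0.59, interval -0.74 to -0.44) and did not pass 2-fold. Il1r1, a receptor for interleukin-1, and Clu, clusterin, had ratios of 0.30 and 0.22. The remaining members were mostly at the limit of detection, among them Saa1, Saa2, Orm1 and Fgg, chosen after their values were seen, at 0 counts in both libraries.

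Markers of other cells differed between the same libraries. Of 10 duct genes compared, 2 were at least 2-fold higher and 0 lower, both in ranges of abundance where 20.6% (mean of 10 to 30 counts) and 7.22% (30 to 100) of all genes were higher. They were Krt19, a duct keratin (11 and 35 counts, log2 ratio 1.24, interval 0.28 to 2.41) and Muc1, a surface mucin (23 and 63 counts, 1.05, interval 0.36 to 1.83). Spp1, which encodes osteopontin, had a log2 ratio of 0.00 (0.0049), and the duct counts summed to 362 and 407 CPM, of which the keratin gene Krt7 held 247 and 291 CPM. All 10 genes of the B and plasma cell list were compared. Of these 10, 9 (all but Cd79a) were at least 2-fold higher and 0 lower, against 3.16% and 0.66% of all genes. All but Ighm and Cd79a had fewer than 10 counts in the control library and were compared only because of their counts in the AE library. The summed level of all 10 was 15.7 CPM in the control library against 396 CPM in the AE library, and of the defining markers Cr2 was at 0 counts in the control library. Of 5 T and innate lymphoid genes compared, 3 were at least 2-fold higher (Cd4, Trac and Il7r, the last with an interval that included equality) and 0 lower, with summed levels of 21.4 and 26.5 CPM, and the defining markers Cd3d, Cd3e and Cd3g, named after their values were seen, were at 0 counts in the control library. Cd4, Trac and Il7r were compared only because of their counts in the AE library, in a range of abundance where 20.6% of all genes were higher. Of 8 macrophage and neutrophil genes compared, 1 was at least 2-fold higher (Lyz2, 6.87 and 26.9 CPM) and 0 lower. Over all genes 3.16% were higher and 0.66% lower. At a mean of 100 to 1000 counts, the range of Lyz2, the shares were 0.396% and 0.113%. The macrophage and neutrophil list summed to 81.5 and 97.5 CPM. The neutrophil genes S100a8, S100a9 and Ly6g, also named after their values were seen, were at 0 counts in both libraries. The part of these cells in the values of Reg2 and Reg3b was not tested.

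None of the 12 β-cell, 7 α-cell and 5 δ- and PP-cell genes passed 2-fold in either direction, against 3.16% higher and 0.66% lower over all genes and 0.396% and 0.113% at a mean of 100 to 1000 counts. The β-cell list had a median log2 ratio of -0.10 and the δ- and PP-cell list of 0.00 (0.0023). The α-cell list had a median of 0.13, with Gcg the highest at 0.46.

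The sequence before the RefSeq start of each member was examined because Reg2 and Reg3b stood above 2-fold while their neighbours Reg1 and Reg3d did not. All 7 members matched an entry among the RefSeq promoters of GRCm38.p6. The 250 bases before the RefSeq start were searched on both strands for 6 motifs. Shown are the 2 members above 2-fold and the 2 others that were compared, 5′ to 3′, with TATAAA, TTCNNNGAA, the same arms set 1 base further apart, and CACCTG in capitals. They lie at chr6:78425733-78425959 (plus strand) for Reg1, chr6:78404905-78405154 (plus strand) for Reg2, chr6:78370708-78370884 (plus strand) for Reg3b and chr6:78378866-78379115 (minus strand) for Reg3d. The windows of Reg1 and Reg3b are shortened so that at most 30 bases of annotated exon remain. GENCODE M21 starts these genes further upstream, Reg1 at 78422711, Reg2 at 78395623 and Reg3b at 78370657. The windows of Reg1, Reg2 and Reg3b therefore lie inside the genes of that annotation, and only that of Reg3d lies outside. Which start is used in these islets was not tested.
Reg1: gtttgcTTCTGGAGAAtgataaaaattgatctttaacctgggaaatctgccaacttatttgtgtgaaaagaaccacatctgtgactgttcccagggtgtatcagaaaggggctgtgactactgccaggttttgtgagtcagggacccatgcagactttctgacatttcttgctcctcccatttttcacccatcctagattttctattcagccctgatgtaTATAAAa
Reg2: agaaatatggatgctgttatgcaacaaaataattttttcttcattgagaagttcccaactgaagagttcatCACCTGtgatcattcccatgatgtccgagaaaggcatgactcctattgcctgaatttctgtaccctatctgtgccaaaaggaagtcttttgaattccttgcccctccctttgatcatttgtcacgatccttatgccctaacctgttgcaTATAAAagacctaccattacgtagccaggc
Reg3b: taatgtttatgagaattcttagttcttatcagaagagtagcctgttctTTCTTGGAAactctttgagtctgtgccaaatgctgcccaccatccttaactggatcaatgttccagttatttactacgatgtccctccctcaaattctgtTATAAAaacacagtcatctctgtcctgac
Reg3d: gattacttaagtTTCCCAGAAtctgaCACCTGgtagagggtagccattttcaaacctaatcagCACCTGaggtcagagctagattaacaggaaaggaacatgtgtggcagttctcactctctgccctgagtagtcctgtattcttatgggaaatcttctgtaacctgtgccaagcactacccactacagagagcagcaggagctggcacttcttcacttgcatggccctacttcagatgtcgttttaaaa

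TATAAA, the core of a TATA box, was present in 4 of the 7 Reg promoters (Reg1, Reg2, Reg3b and Reg3g) and in 12.4% of all 32851 promoters. In Reg1 and Reg2 it began 30 bases before the start, in Reg3b 29 and in Reg3g 27 bases before it. TTCNNNGAA, the palindrome that STAT proteins bind, was found in 2 of the 7 and in 7.02% of all promoters. One match was in Reg3b, 129 bases before the start, and the other in Reg3d, 238 bases before it, so that the motif was held by 1 member above 2-fold and 1 that was not. The form with 1 more base between its arms occurred in Reg1 only, 244 bases before the start, against 5.85% of all promoters. TGACTCA, the AP-1 motif, was found in Reg1 only, against 4.46% of all promoters. CANNTG, the E-box, was in all 7 and in 66.2% of all promoters. CACCTG, an E-box form added after the sequences were seen and overlapping CANNTG by construction, was in 5 of the 7 (Reg2, Reg3a, Reg3b, Reg3d and Reg4) and in 17.2% of all promoters. In Reg3b it lies 214 bases before the start, outside the stretch shown. A match of letters does not show that a factor binds there. Over the 250 bases, Reg3b and Reg3g were the most alike (68.4% identical bases), followed by Reg1 and Reg2 (56.9%), the same pairs that were closest in their coding sequence.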

How the data were processed

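Islet RNA was enriched for mRNA with Oligo (dT) beads and sequenced on an Illumina instrument. The authors deposited 1 file of estimated counts per gene for each library, not scaled for depth or length. The methods name HISAT2 as the aligner, while the submitters' processing notes list Bowtie2, RSEM and DESeq2 without saying what each did. The build and annotation are not given in the sources used here. RSEM divides reads between similar genes, which can leave fractions. Before any ratio was taken, each estimated count was set to its nearest whole number. Totals were 16285888 (control-F2) and 21278513 (AE-F2), so the AE-F2 library has the smaller counting error.

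GENCODE M21 gave symbols for 21806 of 21899 genes, lengths and gene models, and RefSeq (GRCm38.p6) gave promoters. The genes without a symbol held 0.0531% and 0.0497% of the counts. Scaling used the TMM factors of edgeR 4.0.16 (R 4.3.3). The log2 ratio used a pseudocount of 0.5 counts for genes whose mean reached 10 counts. Intervals were exact (95% Clopper-Pearson or Poisson, scipy 1.17.1) and cover counting error only. They treat each count as independent. Since PCR copies are not independent molecules, the intervals can be too narrow even for counting error. A count of 0 was taken to allow 3 counts. No model could be fitted to 1 library per group, and the other 5 labelled samples were not analysed here. The calculation of ratios and intervals was tested on simulated libraries with counting error only, which is what the intervals assume. That test does not bear on PCR copies, the division of reads or the spread between animals. Alternatives were other scalings (DESeq2 1.42.0 size factors among them), minimum counts, pseudocounts, thresholds, acinar lists and transcript lengths.

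The members and the gene lists were chosen with earlier results of these data known. Named genes were the 7 Reg genes, Extl3, the 5 nearest to Reg1, and from each list the 4 most abundant and those past 2-fold, not all of which are printed. The planned comparison of protein sequences was replaced by one of coding bases, since protein sequences were not used here.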

Additional observations from a re-analysis of the deposited data

How the results depend on the processing

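No paired analysis was possible because 1 library per group was analysed and the 2 libraries, replicate 1 and replicate 4, share no number. For the same reason no replicate could be left out. The log2 ratios of Reg1, Reg2, Reg3b and Reg3d and of the summed family stayed within their counting intervals under 4 other scalings, a pseudocount of 5 counts and unrounded counts, and none changed sign. The scalings moved the median log2 ratio of all genes by at most 0.0060. With a pseudocount of 5 counts, Reg2 was at 1.30 and Reg3b at 1.81. The sum without Reg1, added after the data were seen, had a log2 ratio of 1.501.

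With a minimum mean of 50 counts, 1 Reg gene (Reg2) and not Reg3b was at least 2-fold higher, since Reg3b has a mean of 48. That minimum left 82 genes higher, 23 lower and 0 acinar genes lower. A minimum of 1 count gave 1198 higher and 445 lower, with 3 Reg genes higher (Reg3a added). Reg3a, at 0 counts in the control library, entered only through its 7 counts in the AE library, and the pseudocount set its ratio. The number of genes compared at that minimum is not given here, so these counts are not shares. At a 1.5-fold threshold, 818 genes were higher and 300 lower, with 1 acinar gene higher and 2 lower. The Reg family as a percent of acinar counts was 1.16 (control-F2) and 1.44 (AE-F2) with digestive enzymes and colipase only, and 1.24 and 1.78 without Amy2a5, an alternative added after the data were seen. With the longest transcript as length, Reg1 was at 68.04 TPM in the control library and 61.2 in the AE library, and Reg2 at 9.999 in the AE library. Depth limits Reg3a, Reg3g and Reg4, at 7 counts or fewer.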

Other observations

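Other lectins were read by their symbols, a choice made after the Reg values were seen. Of the 32 genes listed with a symbol of the C-type lectin (Clec) series, 7 had a mean of at least 10 counts, and 1 was at least 2-fold higher in the AE library and 0 were lower. That gene was Clec12b, with 4 and 17 counts (log2 ratio 1.58, interval 0.09 to 3.73). It was compared only because of its counts in the AE library, and among all genes with a mean of 10 to 30 counts 20.6% were at least 2-fold higher. Clec2d, a ligand of a lymphocyte receptor, lay just under the threshold, with 29 and 76 counts (log2 ratio 0.99, interval 0.37 to 1.68), and the median of the 7 was 0.17. Of 10 galectin-related genes (symbols that begin with Lgals), 8 were compared, of which 1 was at least 2-fold higher and 0 were lower, where 7.22% of all genes with a mean of 30 to 100 counts, the range of the gene concerned, were higher. This was Lgals1, the galectin abundant in mesenchyme, with 28 counts in the control library and 82 in the AE library (log2 ratio 1.15, interval 0.53 to 1.84). Lgals3, known from macrophages and epithelia, had 21 and 36 counts (0.38, interval -0.42 to 1.24), and Lgals4, a galectin of gut epithelium, 52 and 82 counts (0.27, interval -0.25 to 0.80). The median of the 8 was 0.15.

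The nearest annotated protein-coding neighbour of the Reg cluster within 500000 bases on chromosome 6 was Ctnna2, an α-catenin gene, with 137 counts in the control library and 214 in the AE library.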
